A study of Homo sapiens with 6 samples.

Results

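The genes described here are the AP-1 and EGR immediate early factors: FOS, FOSB, FOSL1, FOSL2, JUN, JUNB, JUND, EGR1, EGR2 and EGR3. They were taken by gene symbol, 10 of the 58735 genes in the table, and the counts of all transcripts of a gene were summed. The measurements are estimated RNA-seq counts from 6 libraries of cells labelled CCRF-SB, a human B cell acute lymphoblastic leukaemia line, collected on day 5 of culture. The 3 siControl libraries (genotype WT) are of cells that received the empty vector, and the 3 siANXA1 libraries (genotype ANXA1 down-regulated) of cells infected with lentivirus carrying an ANXA1-silencing RNA. Puromycin selection is described for the silenced lines, and RPMI-1640 with 10% FBS was the medium of all 6. Whether the replicates are separate cultures, or a line 1 clone, is not stated; p-values reflect the spread among these libraries, which may be technical.

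AP-1 is a dimer of basic leucine zipper proteins. JUN proteins pair with FOS proteins, or with each other, and bind the AP-1 element in promoters and enhancers. EGR proteins carry zinc fingers that recognise a GC-rich element. Most of these genes are transcribed within minutes of growth factor or stress signalling, through serum response factor and ETS-family partners acted on by MAP kinases, and their mRNAs decay quickly. JUND and FOSL2 are, as background, less sharply induced than FOS or EGR1. In leukaemia cells these factors are studied as readouts of MAP kinase signalling and as regulators of growth and survival.

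The smallest library held 21333951 counts with a gene name (siANXA1 replicate 2) and the largest 44148505 (siANXA1 replicate 1). Levels are CPM, the count of a gene relative to all counts of the library, scaled by TMM, a correction for the composition of each library, and are written as mean ± SD. ANXA1 averaged 3716 ± 34.3 CPM (siControl) and 1680 ± 64.3 CPM (siANXA1; SD, n = 3), with edgeR adjusted p = 0.0571 and DESeq2 adjusted p = 1.41e-17. Principal component 1 (39.9% of the variance) had siControl replicates 1 and 2 and siANXA1 replicate 2 on its positive side and the remaining libraries on its negative side. Genes of the amino acid stress response (10 genes, among them DDIT4 and ASNS) divided the libraries in the same way: in order of replicate, siControl summed to 4666, 4432 and 653 CPM and siANXA1 to 497, 2828 and 488 CPM. All values below follow that order. B lymphoid markers went against the label. Of 12 such genes, 9 averaged under 1 CPM, and VPREB1, IGLL1 and DNTT had no count in any library. Erythroid and megakaryocyte markers summed to between 669 and 1382 CPM in siControl and between 3789 and 5600 CPM in siANXA1. Of 11 tested markers in that list, 10 had a positive estimate, and HBG1, HBG2 and HBE1 were among those that did not overlap between the groups. HBE1, an embryonic globin gene, made up much of the sum, with 4.74, 637 and 9.82 CPM in siControl and 3286, 2140 and 2973 CPM in siANXA1. GATA1, KLF1, TAL1, HBZ, ALAS2 and EPOR overlapped, as did ITGA2B, whose estimate was -1.16. T lymphoid markers summed to between 11.4 and 38.5 CPM, most of it CD3D at between 9.43 and 34.8 CPM, with CD2 at 0 throughout. Monocyte and neutrophil markers summed to between 35.1 and 48.96 CPM, most of it LYZ at between 32.3 and 40.3 CPM. Fibroblast and endothelial markers summed to between 6.35 and 28.7 CPM. The part of the erythroid markers and of the stress state in the results that follow was not tested.

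Promoter sequences from RefSeq (GRCh38.p14) matched 8 of the 10 genes; FOSL1 and EGR3 had no entry. The EGR2 window ends at position 62819168, at the start of a transcript without a count, whereas the transcript that held all EGR2 counts, ENST00000242480, starts at 62816355. For JUN, the RefSeq start site (58784047) lies inside the only transcript, ENST00000371222, which starts at 58784327, 280 bases further upstream. The JUN window, 58784048 to 58784297, therefore falls within that transcript. The start site used for FOS lies 54 bases downstream of the start of its main transcript, ENST00000303562. In the 250 bases upstream of the start site, the CArG box, the element bound by serum response factor, was found in EGR1 alone of the 8, against 1.16% of all 35116 promoters of that length. It occurred at 2 places there, as CCATATTAGG from 105 to 96 bases before the start and as CCATATATGG from 83 to 74 bases before it. Bases further upstream were not searched, so a gene without a match, FOS among them, may still hold the element there. An EGR-type element, searched as GCGNGGGCG on both strands, was also found in EGR1 alone of the 8, against 8.41% of all promoters. The palindrome TGANNTCA, which covers the cyclic AMP response element and its ATF variants, was found in JUN, as TGACATCA from 67 to 60 bases before the start, and at 2 places in JUND, against 10.1% of all promoters. The AP-1 element, searched as TGANTCA, was found in 0 of the 8 and in 6.57% of all promoters. TATAAA was found in FOS, FOSB and JUNB, against 10.7% of all promoters. The upstream sequences of EGR1, JUNB and JUND are shown because these are the gene with the highest mean TPM, the JUN gene whose groups did not overlap and the JUN gene with the widest spread. They lie at chr5:138465229-138465478 on the plus strand, chr19:12791236-12791485 on the plus strand and chr19:18281623-18281872 on the minus strand. Capitals mark the CArG boxes and the EGR-type element in EGR1, TATAAA in JUNB and the TGANNTCA palindromes in JUND. A match describes these letters only and says nothing of binding.
EGR1: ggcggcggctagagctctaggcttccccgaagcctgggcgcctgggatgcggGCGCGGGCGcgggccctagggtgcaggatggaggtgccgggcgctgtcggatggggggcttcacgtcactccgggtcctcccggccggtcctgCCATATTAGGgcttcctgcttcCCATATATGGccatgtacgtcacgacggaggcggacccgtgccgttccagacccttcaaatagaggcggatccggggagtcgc
JUNB: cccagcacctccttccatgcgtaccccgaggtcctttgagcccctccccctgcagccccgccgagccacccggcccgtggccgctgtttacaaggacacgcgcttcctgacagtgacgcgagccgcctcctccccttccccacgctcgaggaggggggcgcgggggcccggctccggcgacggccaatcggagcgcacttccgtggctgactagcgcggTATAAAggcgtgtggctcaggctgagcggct
JUND: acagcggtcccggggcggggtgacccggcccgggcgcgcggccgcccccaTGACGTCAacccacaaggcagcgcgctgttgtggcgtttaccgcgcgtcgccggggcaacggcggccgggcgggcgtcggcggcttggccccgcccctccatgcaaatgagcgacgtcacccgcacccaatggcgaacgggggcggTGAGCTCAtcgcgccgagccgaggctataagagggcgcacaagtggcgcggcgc

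EGR1 had the highest mean TPM, a level per length, of the 10 genes, and its mean was lower in siANXA1 without passing the test. JUND stood above it in siANXA1 replicate 2 (165 against 140.2 TPM) and JUNB in siANXA1 replicate 3 (59.3 against 54.2 TPM). EGR1 encodes a zinc finger activator that is among the first genes switched on by the ERK pathway. Its GRCh38 position is chromosome 5, 138465490 to 138469315, plus strand, and 1 transcript is annotated. The siControl libraries read 408, 386 and 208 CPM, and the siANXA1 libraries 99.2, 241 and 94.9 CPM. siControl replicate 3 stood below siANXA1 replicate 2, so the groups overlapped, although siANXA1 replicates 1 and 3 stood below all 3 control libraries. Both groups were higher on the side of the first principal component where the stress genes were high. On that side siControl read 408 and 386 CPM against 241 CPM in siANXA1, and on the other side 208 CPM against 99.2 and 94.9 CPM. The values of 241 and 208 CPM are single libraries, and the part of the stress state was not tested. The means were 334 ± 110 and 145 ± 83.1 CPM (SD, n = 3), with 43.4% remaining. The log2 fold change of EGR1 was -1.20 ± 0.45 (SE), with a Benjamini-Hochberg adjusted p of 0.627 from edgeR (unadjusted p = 0.0339). Without siANXA1 replicate 2 the estimate was -1.78, and EGR1 still did not pass (edgeR adjusted p = 0.438).

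None of the 10 genes passed an adjusted p under 0.05 in edgeR, where 2 of 17947 genes passed (0.0111%), both higher. None passed in DESeq2, where 1.67% of genes with an adjusted p passed (0.77% higher and 0.9% lower), or in limma-voom, where 0.0167% passed. DESeq2 gave EGR2 and EGR3 no adjusted p. At an unadjusted p under 0.05 in edgeR stood 5 of the 10, against 7.93% of all tested genes. All 5 (EGR1, EGR2, FOS, FOSB and JUNB) were lower and 0 higher, against 4.52% and 3.4%. The groups did not overlap for 3 of the 10, against 14.6% of all genes. These were EGR2, FOSB and JUNB, all lower, against 7.24% of genes lower and 7.41% higher. The estimate was negative for 8 of the 10, against 49.5% of all genes, and under -1 for EGR1, EGR2 and FOSB, against 6.63%. The median log2 fold change was -0.37 over the 10 and 0.0066 over all genes. By p, the 5 genes ranked between 918 and 1237 of 17947. In simulated data the edgeR test picked up 1 gene out of 67 that differed 2-fold. A gene that did not pass may therefore still differ by that much.

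**Figure D1:**
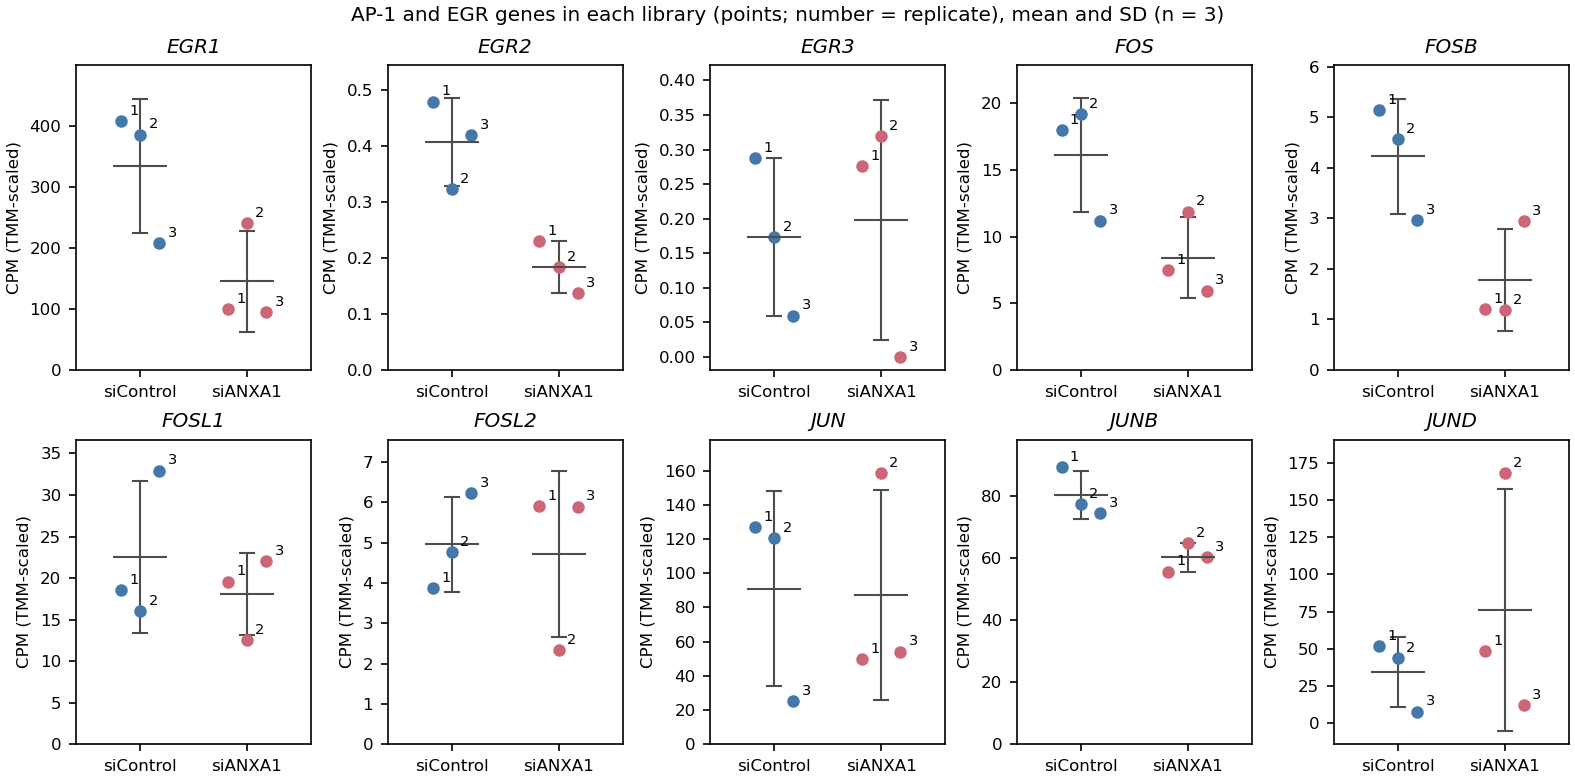
Level of each AP-1 and EGR gene in CPM (vertical axis, TMM-scaled) in siControl and siANXA1. Points are libraries numbered by replicate, and the bar and whiskers are the mean and SD (n = 3). JUNB and EGR2 show separate groups, whereas JUN and JUND spread more within a group than between the groups.

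EGR2 and EGR3, zinc finger relatives of EGR1, were close to the limit of detection. EGR2 maps to chromosome 10, 62811996 to 62919900 (minus strand). It had 20, 13 and 14 counts in siControl and 10, 4 and 5 counts in siANXA1, equal to 0.479, 0.322 and 0.419 CPM against 0.230, 0.183 and 0.136 CPM. Every siANXA1 library stood below every siControl library, but the estimate, a log2 fold change of -1.13 with an SE of 0.45, rests on 66 counts in all (edgeR adjusted p = 0.627). All of its counts fell on 1 of its 6 annotated transcripts, ENST00000242480. EGR3 had 12, 7 and 2 counts in siControl and 12, 7 and 0 counts in siANXA1. The library without a count allows a level of up to 0.0819 CPM, as 3 counts would give (counting error only). Its log2 fold change was 0.13 ± 1.11 (SE; edgeR adjusted p = 0.977), and the sign turned under 5 of 14 alternative settings.

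Among the FOS proteins, which cannot dimerise with themselves and need a JUN partner, FOS and FOSB had negative estimates, whereas FOSL1 and FOSL2 had estimates within 1 SE of 0. FOS maps to chromosome 14, 75278774 to 75282230 (plus strand). It read 17.97, 19.2 and 11.2 CPM in siControl and 7.48, 11.9 and 5.95 CPM in siANXA1. As for EGR1, siControl replicate 3 stood below siANXA1 replicate 2 and the other libraries were separated by group. For FOS the log2 fold change was -0.94 ± 0.35 (SE), with an edgeR adjusted p of 0.627. Of 10 annotated transcripts, 6 had counts. The transcript with the longest reading frame, ENST00000303562 (1140 coding bases), held most of them, with 13.1, 12.2 and 7.28 CPM in siControl and 3.36, 7.86 and 3.003 CPM in siANXA1. Of the shorter transcripts, the most abundant, ENST00000554617, averaged 2.56 ± 1.89 and 1.09 ± 0.914 CPM (siControl and siANXA1; SD, n = 3). ENST00000555347, at 1.47 ± 0.178 and 1.33 ± 0.765 CPM, and ENST00000555686, at 0.464 ± 0.178 and 0.440 ± 0.189 CPM (SD, n = 3), had means closer together than their spread. With the most abundant transcript alone the log2 fold change of FOS was -1.20 (edgeR adjusted p = 0.860), and the other transcripts were not tested.

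FOSB, whose protein can be made in full and in C-terminally shortened forms, maps to chromosome 19, 45467995 to 45475179 (plus strand). It read 5.15, 4.56 and 2.96 CPM in siControl and 1.20, 1.19 and 2.95 CPM in siANXA1. The groups did not overlap, but siControl replicate 3 and siANXA1 replicate 3 lay side by side, with 99 and 108 counts. For FOSB the log2 fold change was -1.24 ± 0.47 (SE; edgeR adjusted p = 0.627). Its transcripts were divided differently from library to library. ENST00000353609, with the longest reading frame (1014 bases), had 100, 84 and 43 counts in siControl and 21, 0 and 94 counts in siANXA1. ENST00000586615 (867 coding bases) had 100, 83 and 16 counts against 16, 16 and 0. ENST00000590335 (531 coding bases) had 10, 12 and 19 counts in siControl and was listed at 0 in all 3 siANXA1 libraries, while ENST00000592811 (564 coding bases) was listed at 0 in siControl and had 2, 8 and 0 counts in siANXA1. Estimated counts of such similar transcripts can be divided arbitrarily, so the gene total is the firmer value.

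FOSL1, which encodes FRA1, maps to chromosome 11, 65892049 to 65900573 (minus strand). It had the highest mean TPM of the FOS genes, above FOS in 4 of 6 libraries. It read 18.5, 16.0 and 32.9 CPM in siControl and 19.6, 12.6 and 22.1 CPM under siANXA1. The highest library was siControl replicate 3 and the lowest siANXA1 replicate 2, so FOSL1 lay the other way round from EGR1 with respect to the first principal component. The log2 fold change of FOSL1 was -0.32 ± 0.36 (SE; edgeR adjusted p = 0.805). Its main transcript ENST00000312562 averaged 11.4 ± 7.46 and 12.98 ± 2.41 CPM (siControl and siANXA1; SD, n = 3). With that transcript alone the estimate for FOSL1 was 0.19. ENST00000532401, with a shorter reading frame of 405 bases, had 459, 55 and 38 counts in siControl and was listed at 0 in all 3 siANXA1 libraries. Most of its counts came from siControl replicate 1, where it outnumbered the main transcript at 216 counts. FOSL2, which encodes FRA2, maps to chromosome 2, 28392448 to 28417312 (plus strand). It read 3.88, 4.76 and 6.23 CPM in siControl and 5.91, 2.33 and 5.90 CPM in siANXA1. Only siANXA1 replicate 2 stood outside the control range on the low side, and the log2 fold change was -0.07 ± 0.42 (SE; edgeR adjusted p = 0.967).

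**Figure D2:**
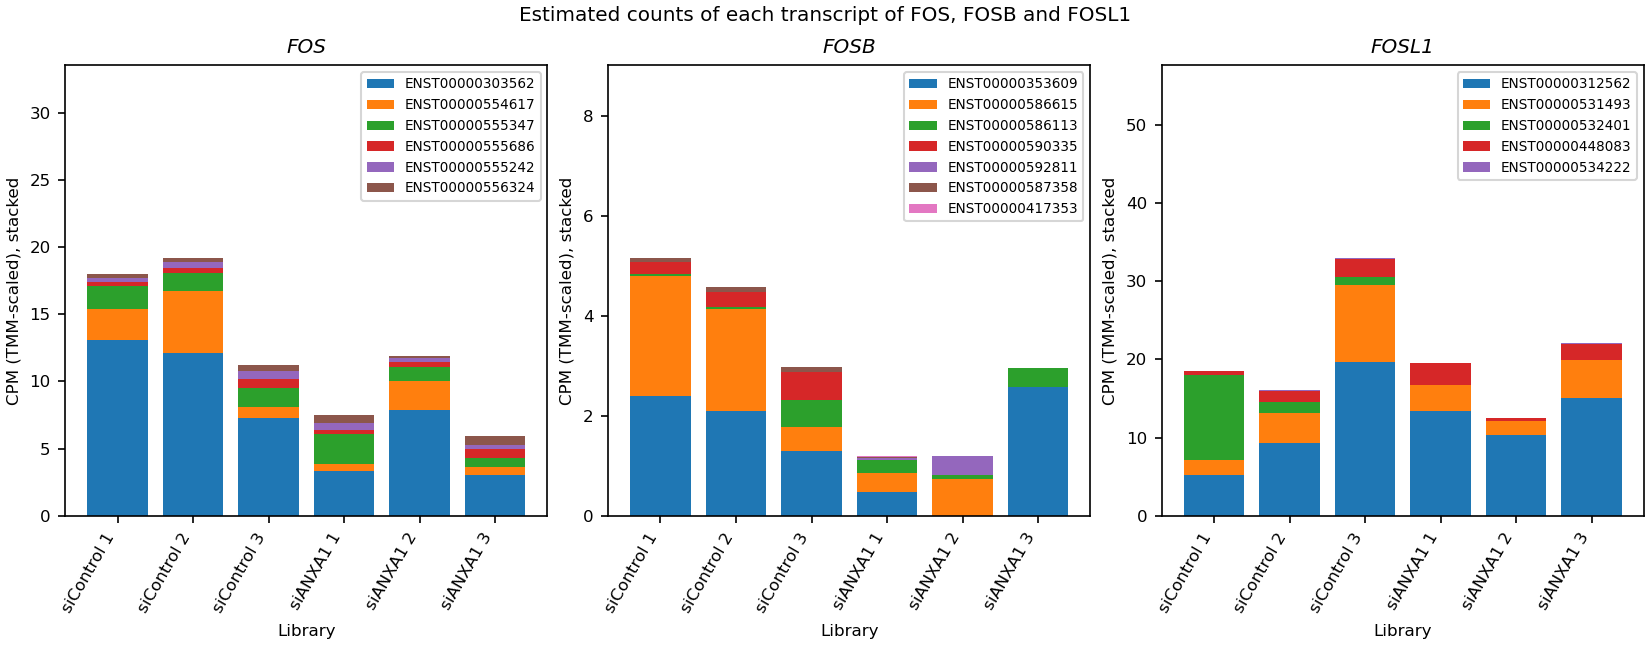
Stacked levels of the annotated transcripts of FOS, FOSB and FOSL1 with a count, in CPM (vertical axis), for each of the 6 libraries (horizontal axis). FOS is mostly ENST00000303562 in every library but siANXA1 replicate 1, where that transcript reads 3.36 of 7.48 CPM, and ENST00000532401 of FOSL1 is seen in the siControl libraries alone.

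The JUN proteins, the partners that AP-1 cannot do without, each followed a different pattern. JUNB, a weaker activator than JUN and often its antagonist, maps to chromosome 19, 12791496 to 12793315 (plus strand). It read 89.1, 77.2 and 74.3 CPM in siControl and 55.5, 64.8 and 60.2 CPM in siANXA1. Every siANXA1 library stood below every siControl library, and the spread within a group was the smallest of the 10 genes relative to the level. The means were 80.2 ± 7.87 and 60.2 ± 4.63 CPM (SD, n = 3), with 75.04% remaining. The log2 fold change of JUNB was -0.41 ± 0.15 (SE), and edgeR gave an adjusted p of 0.627. Over all 16 alternative settings it lay between -0.47 and -0.34.

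JUN, the strongest activator of the family and a target of its own protein and of JNK signalling, maps to chromosome 1, 58780788 to 58784327 (minus strand). It read 127, 121 and 25.1 CPM in siControl and 49.8, 158 and 54.1 CPM in siANXA1. The libraries split by the side of the first principal component and not by group: siControl replicates 1 and 2 and siANXA1 replicate 2 stood above 120 CPM, the others below 55 CPM. For JUN the log2 fold change was -0.06 ± 0.71 (SE; edgeR adjusted p = 0.984), and its sign turned when any of 4 single libraries was left out. JUND maps to chromosome 19, 18279760 to 18281622 (minus strand). It read 51.5, 43.3 and 7.52 CPM in siControl and 48.0, 168 and 11.9 CPM in siANXA1. siANXA1 replicate 2 stood far above the rest, and the third replicate of each group stood far below. Its estimate, 1.15 on the log2 scale with an SE of 1.03 (edgeR adjusted p = 0.775), became -0.18 when siANXA1 replicate 2, the smallest library, was left out.

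**Figure D3:**
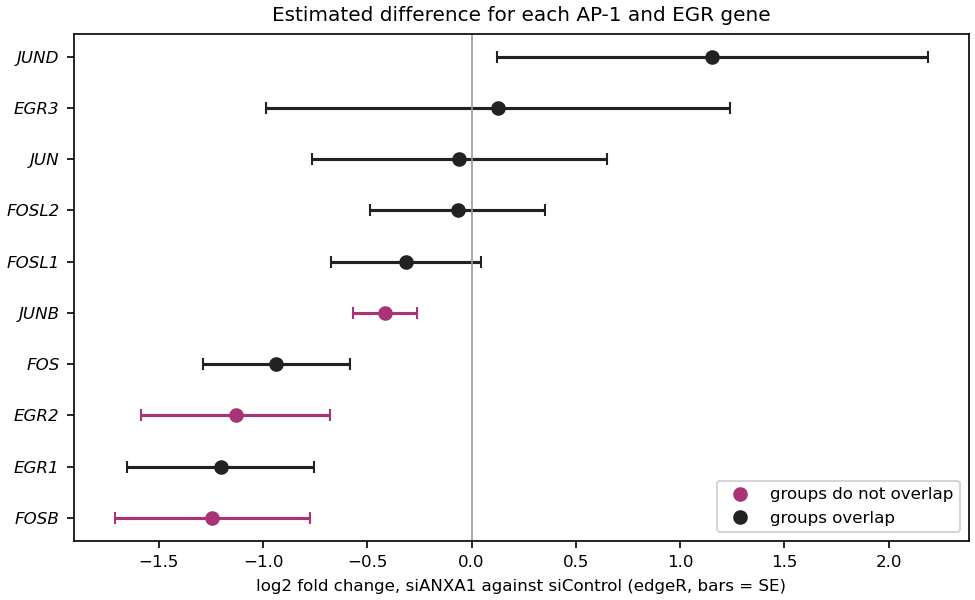
Log2 fold change of siANXA1 against siControl (horizontal axis) for each gene, with bars of 1 SE from edgeR. Colour marks genes whose groups do not overlap. EGR1, EGR2, FOS and FOSB lie between -1.24 and -0.94, JUNB at -0.41 with the shortest bar, and JUND at 1.15 with a bar of 1.03.

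Levels of different genes were set side by side per length, as TPM computed from the deposited counts and transcript lengths. Over the 6 libraries the mean TPM was 136 ± 76.3 for EGR1, 68.5 ± 12.1 for JUNB, 53.2 ± 57.5 for JUND and 45.0 ± 27.2 for JUN. Below these stood FOSL1 at 24.9 ± 8.74 TPM, FOS at 15.3 ± 6.04, FOSB at 1.65 ± 0.857 and FOSL2 at 1.35 ± 0.383 TPM. EGR2 and EGR3 stood at 0.176 ± 0.0804 and 0.102 ± 0.0890 TPM. The order held in all 6 libraries only between FOS and FOSB and between FOSL2 and EGR2. EGR1 exceeded JUNB in 5 of 6 libraries, with a mean difference of 67.1 TPM and an SD of 65.6. The other neighbours did not differ beyond the spread between libraries: JUNB exceeded JUND and JUN exceeded FOSL1 in 5 of 6, FOSL1 exceeded FOS, FOSB exceeded FOSL2 and EGR2 exceeded EGR3 in 4 of 6, and JUND exceeded JUN in 2 of 6.

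Summed per family, the 4 FOS genes gave 50.2, 47.9 and 57.6 TPM in siControl and 34.7, 30.8 and 37.9 TPM in siANXA1. These family totals did not overlap, although FOS, FOSL1 and FOSL2 taken singly did. Of all single genes tested, 14.6% did not overlap in CPM. The 3 JUN genes gave 199, 177 and 92.3 TPM against 122, 312 and 98.5 TPM, which overlapped widely. JUN gene TPM therefore exceeded FOS gene TPM in every library, from 1.603 times in siControl replicate 3 to 10.1 times in siANXA1 replicate 2. Within the JUN family the make-up also differed between libraries. JUNB made up 78.6% of the family's TPM in siControl replicate 3 and 20.9% in siANXA1 replicate 2, where JUND made up 52.9%. The family values were summed after the levels were known and were not tested.

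**Figure D4:**
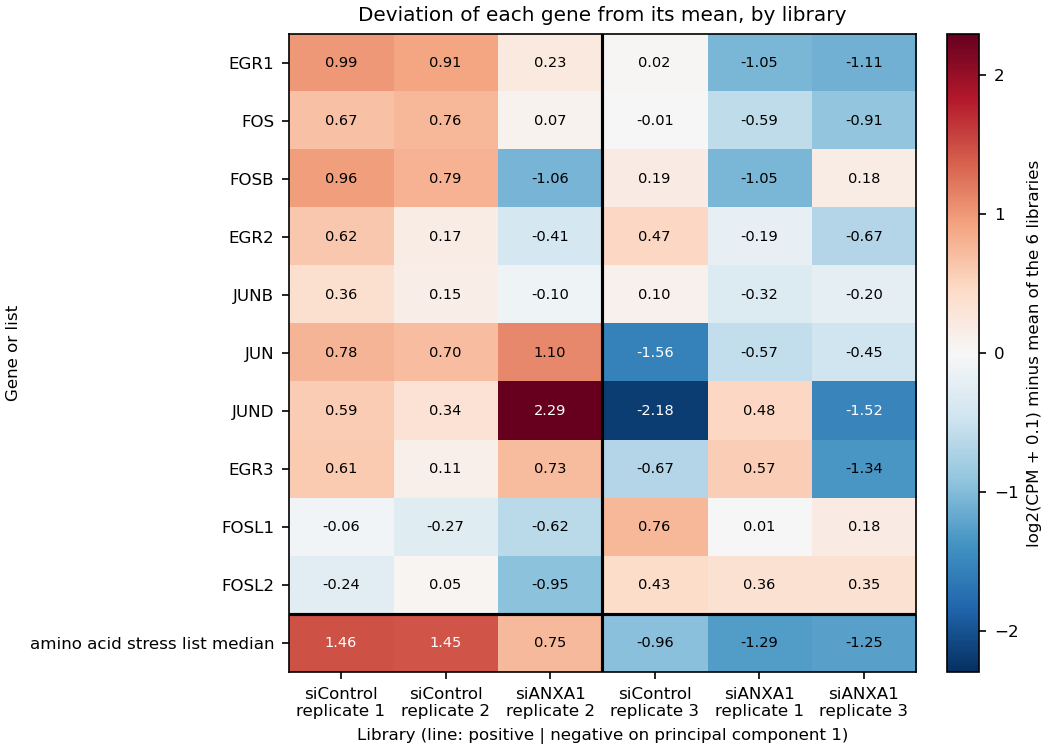
Deviation of each gene, as log2(CPM + 0.1), from its mean over the 6 libraries, with libraries ordered by their side of the first principal component (line) and the median of the amino acid stress list in the bottom row. EGR1 is at 0.99, 0.91 and 0.23 left of the line and at 0.02, -1.05 and -1.11 right of it. JUN is at 1.10 in siANXA1 replicate 2 and -1.56 in siControl replicate 3. Left of the line siANXA1 has only replicate 2, and right of it siControl has only replicate 3.

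Genes were ranked by Pearson correlation of log2 CPM over the 6 libraries with the gene of each family highest in mean CPM. The ranking held 9849 protein coding genes. By mean TPM, JUN stood below JUNB and JUND. The most like EGR1 were SLC2A3, a glucose transporter gene (r = 0.997), NDC80, a kinetochore gene (r = 0.996), and COG4, a Golgi tethering gene (r = 0.995). SLC2A3 read 322, 335 and 210.5 CPM in siControl and 125, 237 and 129 CPM in siANXA1, the same order of groups and sides as EGR1. The most like JUN were CDK16 (r = 0.997), HEY1 (r = 0.997) and HACL1 (r = 0.995), and the most like FOSL1 were TRIM14, LMNB2 and EPPK1 (each r = 0.990). A correlation does not compare the size of a difference. CDK16 read 94.1, 93.3 and 82.8 CPM in siControl and 88.2, 95.6 and 87.9 CPM in siANXA1, a much narrower range than JUN. Over these 6 libraries, 666 genes exceeded 0.9 with EGR1, 427 with JUN and 227 with FOSL1.

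The genes around AP-1 and EGR were taken as 6 lists. None of their tested members passed edgeR's threshold in either direction. Groups did not overlap for 2 genes higher and 1 lower of 14 tested basic leucine zipper partners. The counts, higher then lower, were 0 and 1 of 3 EGR relatives and 2 and 1 of 21 in the serum response factor arm. They were 1 and 2 of 22 other immediate early genes, 0 and 2 of 18 targets and 0 and 1 of 12 turnover genes. Over all tested genes the shares were 7.41% higher and 7.24% lower. The naming rule includes the gene with the lowest p of each list. Among basic leucine zipper partners, 9 of 14 tested genes had a negative estimate, against 49.5% of all tested genes, with a median log2 fold change of -0.30. ATF2, a JUN partner at the cyclic AMP response element, read 83.1, 89.9 and 88.6 CPM in siControl and 114, 114 and 110 CPM in siANXA1, all 3 above every control library (log2 fold change 0.37; edgeR adjusted p = 0.625). NFE2L2, the antioxidant regulator NRF2, read 199.7, 196 and 146 CPM and 79.99, 106 and 142 CPM, and the groups did not overlap (edgeR adjusted p = 0.620). ATF4, which drives genes of amino acid synthesis, read 683, 605 and 370 CPM and 344, 526 and 327 CPM. ATF3 (picked with its values known) had 51.6, 39.6 and 7.61 CPM and 7.96, 80.0 and 14.7 CPM, high in the same 3 libraries as JUN.

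Of the EGR relatives, EGR4 had no count in any library, and all 3 tested genes had negative estimates, against 49.5% of all tested genes. NAB2, a co-repressor that EGR proteins induce and that binds them, read 24.1, 21.8 and 37.1 CPM in siControl and 17.0, 19.7 and 21.4 CPM in siANXA1. The NAB2 groups did not overlap, and its log2 fold change was -0.52 ± 0.26 (SE; edgeR adjusted p = 0.645). NAB1 read 2.13, 39.9 and 13.8 CPM and 14.3, 3.06 and 8.30 CPM, a wide spread in both groups. WT1, whose zinc fingers resemble those of EGR proteins, stood at 21.4 ± 1.51 and 19.3 ± 6.73 CPM (SD, n = 3). In the serum response factor arm and its kinases, 10 of 21 estimates were positive and the median was -0.04. ELK1, an ETS-family partner of serum response factor, read 83.4, 79.6 and 93.2 CPM and 123, 105 and 117 CPM without overlap (edgeR adjusted p = 0.610). RPS6KA3, a kinase downstream of ERK, stood at 212 ± 33.0 and 192 ± 12.0 CPM, and MAP2K2, which encodes MEK2, at 114 ± 12.3 and 116 ± 13.2 CPM (SD, n = 3).

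Of the other immediate early genes, 16 of 22 tested had a negative estimate, against 49.5% of all tested genes, with a median log2 fold change of -0.24. DESeq2 called 2 of them, ID3 and MYC, both lower, against 0.9% of all genes with an adjusted p called lower and 0.77% higher. ID3, which blocks E proteins and is inducible by EGR1 in lymphocytes, read 58.4, 50.1 and 48.8 CPM in siControl and 15.1, 13.0 and 16.3 CPM in siANXA1 (edgeR adjusted p = 0.122; DESeq2 adjusted p = 1.41e-17). The ID3 libraries lay close together within each group. MYC read 90.4, 96.5 and 11.1 CPM and 9.78, 12.97 and 10.6 CPM, with siControl replicate 3 among the siANXA1 values (edgeR adjusted p = 0.605; DESeq2 adjusted p = 0.025). ID1 read 102, 94.4 and 169.5 CPM and 61.8, 60.3 and 70.7 CPM, also without overlap (edgeR adjusted p = 0.605). MCL1, an inhibitor of apoptosis, stood at 668 ± 96.2 and 544 ± 83.0 CPM (SD, n = 3). IER2 read 133, 41.8 and 42.0 CPM and 18.5, 248 and 67.2 CPM, with siANXA1 replicate 2 highest, as for JUN and JUND. KLF6 (picked with its values known) had 111, 107 and 38.8 CPM and 47.3, 163 and 44.4 CPM, the same 3 libraries high.

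Known target genes of AP-1 or EGR had 14 of 18 negative estimates, against 49.5% of all tested genes, and a median of -0.46. That list includes FOSL1 itself and NAB2. Of the abundant targets, EZR stood at 275 ± 26.95 and 303 ± 14.9 CPM, VEGFA at 258 ± 133 and 166 ± 72.1 CPM, and TGFB1 at 185 ± 10.2 and 178 ± 1.70 CPM (SD, n = 3). VEGFA was high in the same 3 libraries as the stress genes. Regulators of the turnover of AP-1 proteins and mRNA had 6 of 12 negative estimates and a median of 0.03. COP1, a ubiquitin ligase adaptor for JUN, read 82.9, 69.3 and 68.7 CPM and 57.5, 44.8 and 55.4 CPM, without overlap (edgeR adjusted p = 0.625). The RNA-binding genes HNRNPD, ELAVL1 and ZFP36L2 stood at 577 and 566 CPM, 232 and 249.98 CPM, and 104 and 118 CPM.

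**Figure D5:**
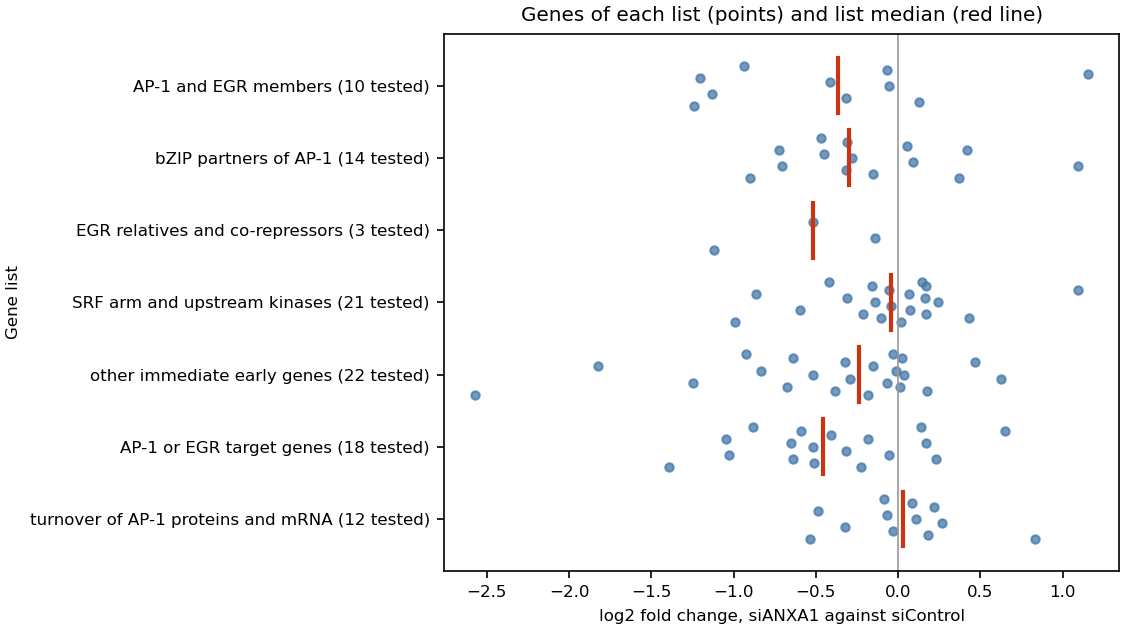
Log2 fold change of siANXA1 against siControl (horizontal axis) for each tested gene of the 7 lists, with the list median as a red line. Medians range from -0.52 for the EGR relatives, with 3 tested genes, to 0.03 for turnover genes, against 0.0066 over all 17947 genes.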

How the data were processed

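RNA-seq was measured in 3 siControl and 3 siANXA1 libraries, with groups and replicate numbers taken from the sample titles. Tables deposited by the authors give estimated counts for each transcript, unnormalized, and its length. That they are estimates was read from the values. The 1335690 values were equal in both deposited tables. Aligner, counter and strandedness: not given in the sources used here. Mouse build mm10 is named in the submitters' processing notes, but all 206601 named rows were found in GENCODE release 29 (human, GRCh38). A further 16014 rows without a gene, 16.9% to 17.7% of counts, were left out.

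Counts were summed per gene and compared using edgeR 4.0.16 under R 4.3.3 (TMM, filterByExpr, robust glmQLFit, glmQLFTest), group as the only term, two-sided, Benjamini-Hochberg over 17947 genes, threshold 0.05. All 10 genes passed the filter. DESeq2 1.42.0 and limma-voom (limma 3.58.1) were alternatives, with 3 scalings, 2 filters, the most abundant transcript, protein coding genes, a replicate block and each library left out. TPM used deposited lengths, not effective lengths. The test was checked on simulated data, where it detected few of the smaller differences. Where the simulated difference was 2-fold, it picked up 1 gene out of 67. At 4-fold it picked up 23 out of 67, and at 8-fold 48 out of 66. Wrongly called genes numbered 4. Genes and lists were chosen with earlier results of these data known. Named in each related list were called genes, otherwise the 3 most abundant and the 1 with the lowest p. For the gene of each family with the highest mean CPM, the 3 genes most correlated with it were named. Some genes that this rule names are not reported here. Figures used matplotlib 3.10.9.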

Additional observations from a re-analysis of the deposited data

How the results depend on the processing

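No AP-1 or EGR gene was called under any of the 16 alternatives. EGR1, EGR2, FOS, FOSB and JUNB kept a negative estimate wherever they were tested. With the replicate block EGR3 turned to -0.0656 and JUN to 0.0677. EGR3 also turned with limma-voom (-0.69), and FOSL1 with the most abundant transcript (0.19). When 1 library was left out, EGR3 ranged from -0.30 to 0.74, JUN from -0.80 to 0.25, FOSL1 from -0.52 to 0.0583, FOSL2 from -0.26 to 0.26 and JUND from -0.18 to 1.67; JUND turned without siANXA1 replicate 2. The cause was not tested. Over all genes, 2 were called; DESeq2 called 258, the most abundant transcript 1, protein coding genes alone 1 and the replicate block 0, and leaving out 1 library gave 0 to 7. ANXA1 passed with DESeq2 (-1.15), limma-voom (-1.15), the strict filter (-1.17) and without siControl replicate 3, with log2 fold changes from -1.16 to -1.11 when 1 library was left out. Whether the replicate numbers pair the samples was not settled: deviations of same-numbered libraries correlated at -0.114, 0.263 and 0.256. siControl replicate 1 correlated best with siANXA1 replicate 2 (0.226), and siControl replicates 2 and 3 with their own numbers. Deviations from a mean of 3 libraries are not independent, so these correlations cannot decide it. EGR2 had 4 to 20 counts a library; how far depth limits it was not tested.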
